A study of Mus musculus with 9 samples.

Results

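The genes described here encode carbonic anhydrases and the carriers that move bicarbonate, protons and lactate across the cell membrane, measured in 9 mouse mammary carcinoma cell lines. The set holds 9 listed genes: the carbonic anhydrases Car2, Car9, Car12 and Car13, the bicarbonate transporters Slc4a4 and Slc4a7, the lactate carriers Slc16a1 and Slc16a3, and Bsg, which encodes the chaperone of both carriers. Of the 19938 genes with a symbol of their own on the array, 8 are members, each read by 1 probe set. Slc4a7 had no probe set assigned to it alone and was not analysed here. The members were chosen by name with earlier results of the same comparisons known, and the probe set of a gene was selected on its mean over all 9 arrays. Their levels and differences are therefore given as a description. No p-value is printed for a member, and where members are counted as called, the count is set beside the share of all genes and nothing is read from it.

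Tumor cells that ferment glucose produce lactate and protons, and both have to leave the cell. Monocarboxylate carriers of the SLC16 family export lactate together with a proton, and reach the cell surface bound to basigin, the product of Bsg. Carbonic anhydrases interconvert carbon dioxide and water with bicarbonate and a proton, either inside the cell (Car2, Car13) or on its outer face (Car9, Car12), and sodium bicarbonate cotransporters of the SLC4 family carry bicarbonate across the membrane. Car9 and Slc16a3 are known targets of the hypoxia-inducible factor HIF-1, a transcription factor that binds a short core motif.

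4T1 is a mammary carcinoma line of the mouse that spreads to distant organs, and each of the lines measured was re-grown from a 4T1 tumor of a different animal. There were 3 brain metastasis lines (4T1-BM2), 3 lung metastasis lines (4T1-LM2) and 3 primary tumor lines (4T1-T2), numbered here as the mice of each origin and measured on 1 array each. The labels record no treatment and no age of the animals, and do not state whether the lines of an origin descend from a common selected ancestor. If they do, the 3 lines of an origin are not fully independent samples, and p-values measure the spread between these lines alone. All lines were thawed, cultured and extracted in parallel, so the values describe cultured cells, in which more expressing cells and more RNA per cell cannot be told apart.

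All levels are log2 intensities, and the array medians lay at 5.06 to 5.19. Precision is limited by having 3 arrays per origin. The median level of probe sets with no gene symbol, 4.18, served as a mark of background. Levels of different genes are not compared, since each probe set has its own brightness. All 6 of 6 epithelial markers had a mean over the lines above this mark. Array weights from limma were lowest for lung line 1 (0.48) and brain line 3 (0.60), against 0.817 to 1.82 in the other lines.

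Promoter sequences of 3 members are shown. The first and the last belong to the known HIF-1 targets Car9, whose origins did not overlap, and Slc16a3, whose origins overlapped. Slc16a3 was read near background, which limits this contrast. The second sequence belongs to Car12, whose differences between origins were close in size to those of Car9. Each is the 250 bases before the gene's start, read 5′ to 3′ on the plus strand of GRCm38.p6 from RefSeq, at chr4:43506776-43507025, chr9:66713436-66713685 and chr11:120948817-120949066. Capitals mark ACGTG or GCGTG, the HIF core motif, on either strand.
Car9: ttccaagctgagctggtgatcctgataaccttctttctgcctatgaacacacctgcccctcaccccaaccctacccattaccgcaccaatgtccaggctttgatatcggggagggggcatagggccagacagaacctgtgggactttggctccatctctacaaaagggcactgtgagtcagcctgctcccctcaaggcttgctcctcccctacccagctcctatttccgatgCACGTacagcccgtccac
Car12: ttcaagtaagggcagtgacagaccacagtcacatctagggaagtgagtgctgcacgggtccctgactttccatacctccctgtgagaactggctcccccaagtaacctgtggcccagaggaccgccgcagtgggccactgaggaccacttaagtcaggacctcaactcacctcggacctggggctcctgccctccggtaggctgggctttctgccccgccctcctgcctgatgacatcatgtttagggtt
Slc16a3: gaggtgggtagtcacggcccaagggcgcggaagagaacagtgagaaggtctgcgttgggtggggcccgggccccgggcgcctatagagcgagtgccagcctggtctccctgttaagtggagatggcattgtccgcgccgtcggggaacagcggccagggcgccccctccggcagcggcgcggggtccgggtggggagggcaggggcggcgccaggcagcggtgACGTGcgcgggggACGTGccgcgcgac

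Car9 held 1 match, on the minus strand, from 18 to 14 bases before the start. Slc16a3 held 2 matches of ACGTG on the plus strand, the nearer one from 14 to 10 bases before the start, and the Car12 window held none. RefSeq windows were at hand for 6 of the 9 members, 4 of which held a match. Of all 32851 promoter windows of this length, 16.6% held ACGTG, 28.2% held GCGTG and 38.6% held at least 1 of the pair, so a match by itself is common. A match is a string of letters and not a measured binding site.

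Car9 and Car12, which encode enzymes of the outer cell face, had higher levels in the brain lines than in either other origin. Car9, the gene of the membrane-bound carbonic anhydrase IX, had log2 levels of 8.37, 9.11 and 8.43 in brain lines 1, 2 and 3, 7.62, 7.69 and 7.82 in the lung lines, and 7.14, 7.21 and 7.31 in the primary lines. The 3 origins did not overlap: every brain line lay above every lung line, and every lung line above every primary line. The log2 difference was 1.42 ± 0.17 in brain against primary lines (SE, 3 lines per origin), which is 2.67-fold. It was 0.93 ± 0.17 in brain against lung lines (1.90-fold) and 0.49 ± 0.17 in lung against primary lines (1.40-fold). Brain line 2 stood above the other brain lines, which made the SD of the brain lines 0.41, against 0.10 in the lung and 0.09 in the primary lines.

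Car12, the gene of carbonic anhydrase XII, a second membrane enzyme facing outward, showed the same order of origins. Its log2 levels were 8.82, 8.79 and 9.13 in the brain lines, 7.77, 7.81 and 7.99 in the lung lines, and 7.54, 7.72 and 7.24 in the primary lines. Again no line of one origin overlapped another origin, although lung line 1 and primary line 2 were close. The difference was 1.41 ± 0.13 in brain against primary lines (2.66-fold), 1.06 ± 0.13 in brain against lung lines (2.08-fold) and 0.35 ± 0.13 in lung against primary lines (1.28-fold). The highest Car9 level was in brain line 2 and the highest Car12 level in brain line 3, so the pair did not rank the brain lines alike.

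**Figure D1:**
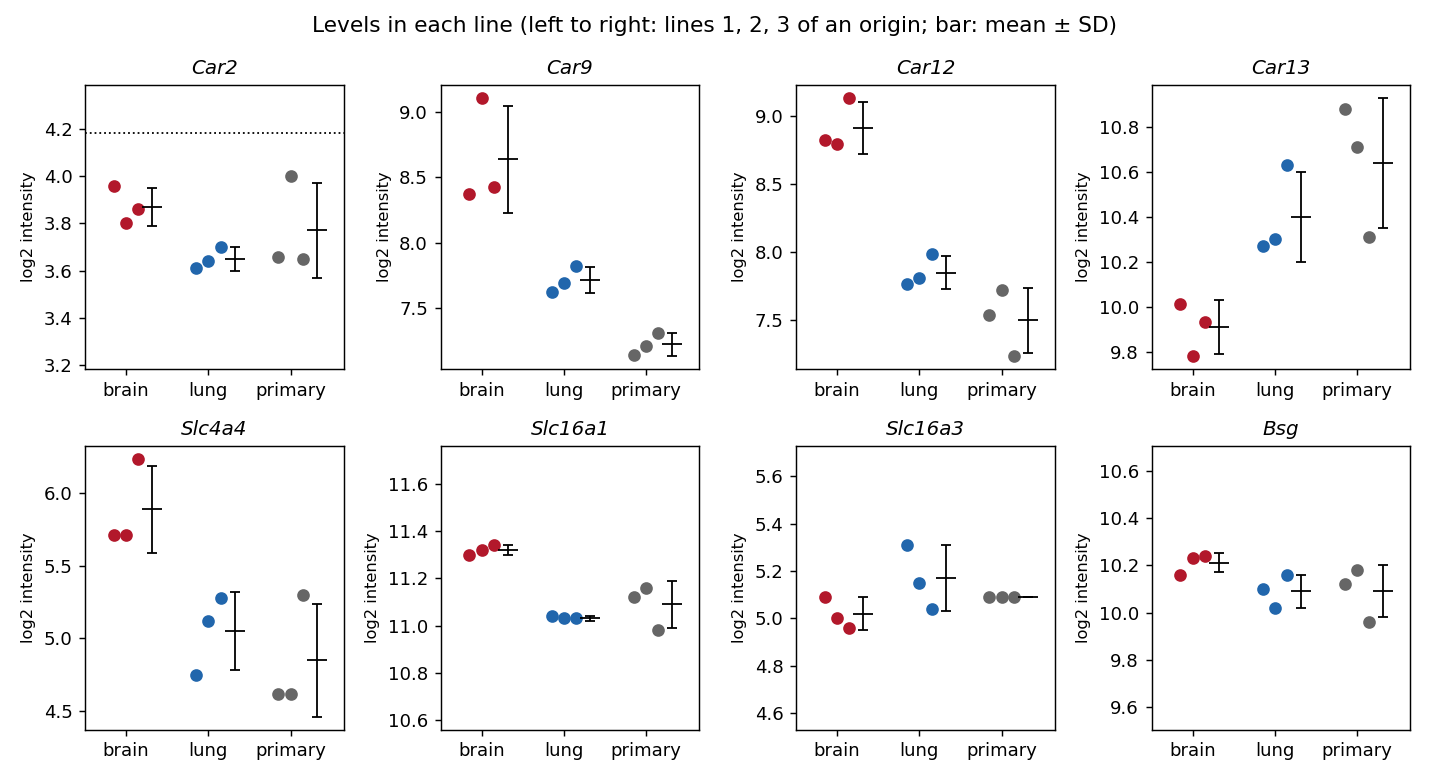
Level of each measured member in every line, in log2 intensity, with 1 point per line and the mean ± SD of the 3 lines beside the points. The dotted line in the Car2 panel is the background mark at 4.18. Car9 and Car12 separate the 3 origins, Car13 is lowest in the brain lines, and Slc16a3 and Bsg overlap between origins.

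Car13 ran the other way. Car13, the gene of the cytosolic carbonic anhydrase XIII, had log2 levels of 10.01, 9.78 and 9.93 in the brain lines, 10.27, 10.30 and 10.63 in the lung lines, and 10.88, 10.71 and 10.31 in the primary lines. The brain lines lay below all other lines, while lung and primary lines overlapped. The difference was -0.73 ± 0.15 in brain against primary lines (1.66-fold lower), -0.49 ± 0.15 in brain against lung lines (1.40-fold lower) and -0.24 ± 0.15 in lung against primary lines. Car2, the gene of the widespread cytosolic carbonic anhydrase II, lay between 3.61 and 4.00 in all 9 lines, below the background mark, so no difference is given for it.

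Slc4a4 encodes the electrogenic sodium bicarbonate cotransporter NBCe1. Its log2 levels were 5.71, 5.71 and 6.24 in the brain lines, 4.75, 5.12 and 5.28 in the lung lines, and 4.62, 4.62 and 5.30 in the primary lines. All brain lines were above all other lines, and primary line 3 was slightly above lung line 3. The difference was 1.04 ± 0.22 in brain against primary lines (2.05-fold), 0.84 ± 0.22 in brain against lung lines (1.79-fold) and 0.20 ± 0.22 in lung against primary lines, the last no larger than its error. The lung and primary means, 5.05 and 4.85, were near the background mark of 4.18, which limits these differences. Slc4a4 is also expressed by astrocytes, so markers of that cell type are given further on.

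The lactate carriers and their chaperone had the smallest differences among the members above background. Slc16a1, the gene of the carrier MCT1, had log2 levels of 11.30, 11.32 and 11.34 in the brain lines, 11.04, 11.03 and 11.03 in the lung lines, and 11.12, 11.16 and 10.98 in the primary lines. The brain lines were above all other lines, by a difference of 0.23 ± 0.07 against primary lines (1.18-fold) and 0.29 ± 0.07 against lung lines (1.22-fold). After centring the arrays on their medians the difference against lung lines was 0.36, and with quantile normalization repeated it was 0.26. Lung and primary lines overlapped, with a difference of -0.05 ± 0.07.

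Slc16a3 encodes MCT4, the carrier best known for lactate export from glycolytic cells. Its log2 levels were 5.09, 5.0 and 4.96 in the brain lines, 5.31, 5.15 and 5.04 in the lung lines, and 5.09 in each of the 3 primary lines. The difference was -0.07 ± 0.08 in brain against primary lines, -0.15 ± 0.08 in brain against lung lines and 0.08 ± 0.08 in lung against primary lines, and the origins overlapped in all 3 comparisons. The deposited value was identical on 4 arrays, and 48.0% of all probe sets had a value shared by at least 2 arrays, so the lack of spread among the primary lines is no measure of their likeness. The means of Slc16a3 (5.02, 5.17 and 5.09 in brain, lung and primary lines) were near the background mark of 4.18, which limits these differences. Bsg had log2 levels of 10.16, 10.23 and 10.24 in the brain lines, 10.10, 10.02 and 10.16 in the lung lines, and 10.12, 10.18 and 9.96 in the primary lines. These overlapped as well, with a difference of 0.12 ± 0.08 in brain against primary lines, 0.11 ± 0.08 in brain against lung lines and 0.01 ± 0.08 in lung against primary lines.

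**Figure D2:**
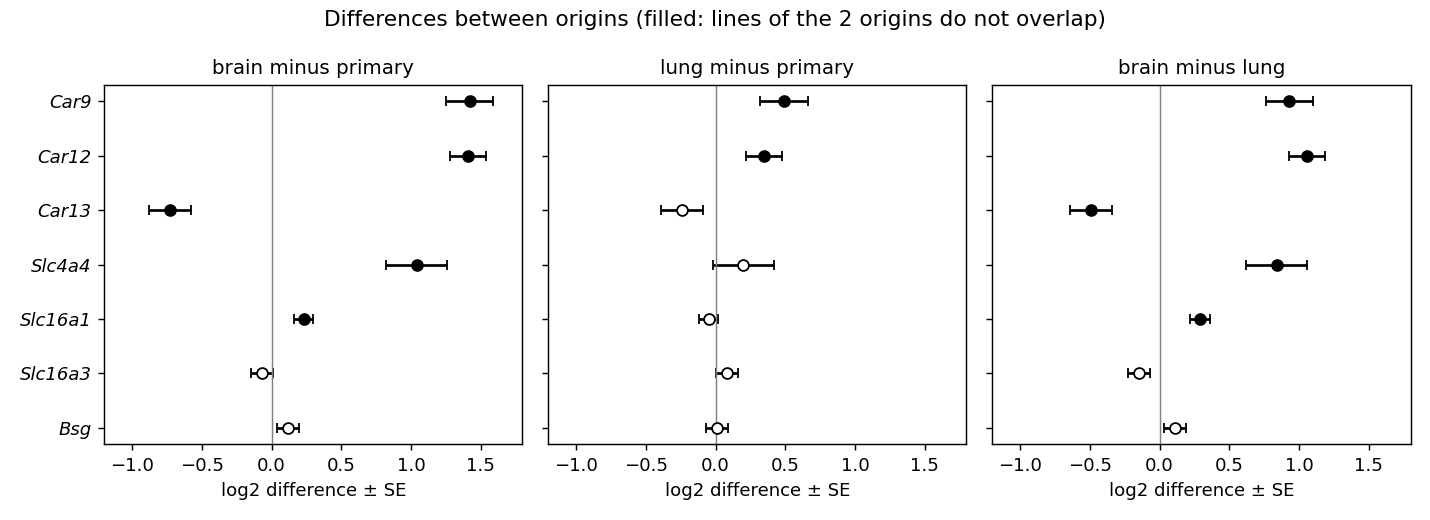
Log2 difference ± SE between origins for the 7 members above background (brain minus primary, lung minus primary and brain minus lung lines). Filled points mark members whose lines do not overlap between the 2 origins. Car9, Car12 and Slc4a4 lie near or above 1 in brain minus primary lines, and Car13 lies at -0.73.

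Lines of the brain and primary origins did not overlap in 5 of the 8 measured members, where 17.8% of all genes had no overlap. Between brain and lung lines 6 of 8 did not overlap, against 16.9% of all genes, and between lung and primary lines 2 of 8 (Car9 and Car12), against 8.71%. The sixth member between brain and lung lines was Car2, which lay below background. In the limma fit across all genes, where called means an adjusted p (Benjamini-Hochberg) under 0.05, 3 of 8 members were called higher in brain than in primary lines (Car9, Car12 and Slc4a4), beside 1.56% of all genes. Car13 was the 1 member called lower, beside 1.57% of all genes. Car9 and Car12 were called higher in brain against lung lines, beside 0.913% of all genes, and 0 members were called lower, beside 1.07%. Nothing is read from these counts, since the members were listed with such results known. The median log2 difference of the 8 members was 0.18 in brain against primary lines and 0.26 in brain against lung lines, where the medians over all genes were 0.00 and -0.01. The medians of the members include Car2, and nothing is read from them either.

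Calls of Car12 in both brain comparisons, and of Car9 in brain against primary lines, held in all 9 fits that each left out 1 line. Those of Car13 and Slc4a4 did not. These fits reuse the lines whose results were known when the members were listed, so they describe the calls and are no support for them. Without any 1 of brain lines 1, 2 and 3, lung line 2, or primary lines 1 and 2, only Car9 and Car12 were called in brain against primary lines, and Slc4a4 was also lost without lung line 3. Against lung lines Car9 was lost without any 1 of the 3 lung lines, which left Car12 alone, and Slc4a4 and Slc16a1 were added without primary line 3. With mouse number added to the fit as a block, Slc4a4 was called against lung lines besides Car9 and Car12. With 1 line left out, the number of all genes called in brain against primary lines varied as well, from 273 to 556. Nothing is read from the gain or loss of a member.

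Between lung and primary lines 0 members and 0 genes in all (0% of 19938) were called with limma. At an unadjusted p under 0.05 there were 2 members, Car9 and Car12, and 946 genes in all. Without moderation of the variances 1 gene was called, which is no member.

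Other genes of acid and bicarbonate handling, none of them members, were tested with the same fit. The brain comparisons share the brain lines, and both comparisons against primary lines share the primary lines, so their counts are not independent. Of 152 listed genes, 143 were measured. In brain against primary lines 6 rose, 1 fell and 136 did not pass, which is 4.90% called, beside 3.13% of all genes in either direction. In brain against lung lines 1 rose and 1 fell (1.40%, beside 1.98% of all genes), and in lung against primary lines 0 passed. At an unadjusted p under 0.05 there were 26, 18 and 8 of the listed genes in brain against primary, brain against lung and lung against primary lines (18.2%, 12.6% and 5.59%), beside 15.8%, 14.9% and 4.74% of all genes. The counts of single lists given next stand against these shares. The lines did not overlap in 14.0%, 16.8% and 11.9% of them, shares below, near and above those of all genes given before. After median centring of the arrays, 10 rose and 1 fell in brain against primary lines. In brain against lung lines the mouse-number block gave 2 rises and 2 falls, adding Mpc1 and Slc16a13, which are named after their values were seen. Without brain line 2 or 3, lung line 2 or 3, or any 1 of the primary lines, 4 genes passed in brain against primary lines. Against lung lines 1 passed without brain line 2 (Slc16a13), brain line 3 or lung line 3 (Otop1 in both), and 0 without lung line 1 or 2.

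The largest change of these genes in brain against primary lines was in Slc4a11, an SLC4 family member known to move protons or hydroxide rather than bicarbonate. Its log2 levels were 8.90, 8.91 and 9.50 in the brain lines, 7.69, 8.0 and 7.92 in the lung lines, and 7.58, 7.68 and 6.90 in the primary lines. Every brain line was above every other line, and all lung lines were above all primary lines. It rose 3.27-fold in brain against primary lines (log2 change 1.71 ± 0.22, limma adjusted p = 0.00491), and the call held without any 1 line. Over all alternatives its adjusted p lay between 0.00237 and 0.0724, the highest without moderation of the variances. It rose 2.35-fold in brain against lung lines (1.23 ± 0.22, limma adjusted p = 0.0227), with a range of 0.0124 to 0.157 over the alternatives. That call was lost without brain line 2 (0.0527) or 3 (0.0688) and without lung line 1 (0.0916), 2 (0.0905) or 3 (0.0795). The other 18 bicarbonate and anion transporters did not pass in any of the comparisons.

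Otop1, the gene of an otopetrin proton channel known from sour taste cells, changed in the opposite direction. Its log2 levels were 6.09, 5.74 and 6.04 in the brain lines, 7.41, 7.79 and 6.74 in the lung lines, and 7.29, 7.26 and 7.45 in the primary lines. All brain lines were below all other lines, with lung line 3 the nearest to them. It was 2.60-fold lower in brain than in primary lines (log2 change -1.38 ± 0.22, limma adjusted p = 0.0115, range 0.0048 to 0.109 over the alternatives), and this held without any 1 line. In brain against lung lines it was 2.56-fold lower (-1.36 ± 0.22, limma adjusted p = 0.0193, range 0.00788 to 0.145), a call lost without brain line 2 (0.0627) and without lung line 1 (0.074) or 2 (0.0605). Of the 12 measured acid-sensing receptors and channels, Otop1 was the only one that passed.

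Among the other monocarboxylate carriers 1 of 14 rose in brain against primary lines and 0 fell. This was Slc16a6, a carrier described in zebrafish as exporting ketone bodies. Its log2 levels were 6.06, 6.12 and 6.39 in the brain lines, 5.59, 5.74 and 5.75 in the lung lines, and 5.69, 5.50 and 5.28 in the primary lines. The brain lines lay above the rest, and the change against primary lines was 0.70 ± 0.12 (1.62-fold, limma adjusted p = 0.0149, range 0.00941 to 0.101), lost without primary line 2 (0.0567). Emb, which encodes embigin, a second chaperone of lactate carriers, was below background in all origins (means of 2.52, 2.48 and 2.50 in brain, lung and primary lines).

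**Figure D3:**
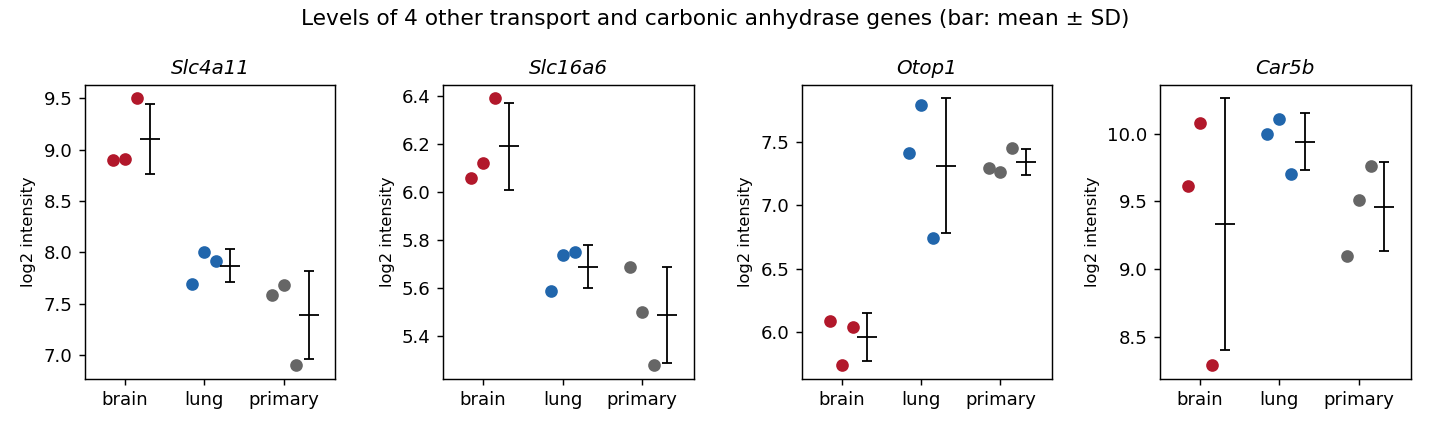
Levels of Slc4a11, Slc16a6, Otop1 and Car5b in every line, in log2 intensity, with the mean ± SD of the 3 lines beside the points. Brain lines stand apart from the others in the first 3 genes, upward in Slc4a11 and Slc16a6 and downward in Otop1. In Car5b, brain line 3 lies at 8.29, apart from the other lines.

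None of the 12 other carbonic anhydrases passed in limma in any comparison, with 1, 1 and 0 at an unadjusted p under 0.05 in brain against primary, brain against lung and lung against primary lines. Of these, 6 had a mean below background. Car4, a membrane-anchored enzyme, and Car10, a related protein thought to lack activity, had the smallest F test p. Mean levels of Car4 were 4.02, 3.71 and 3.77 in brain, lung and primary lines, and those of Car10 were 3.77, 3.68 and 3.80, all below background. After median centring of the arrays Car4 passed in both brain comparisons, and with quantile normalization repeated it passed in brain against lung lines. Car5b, a mitochondrial enzyme named after its values were seen, had log2 levels of 9.61, 10.08 and 8.29 in the brain lines, 10.00, 10.11 and 9.70 in the lung lines and 9.10, 9.51 and 9.76 in the primary lines. Its spread among brain lines (SD 0.93) was larger than its difference against primary lines (-0.13 ± 0.38, limma adjusted p = 0.933).

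Sodium proton exchangers and proton pumps held no called gene in limma. Of 13 measured exchangers and partners, 0 had an unadjusted p under 0.05 in any of the comparisons, and the smallest F test p belonged to Chp1, a partner protein of the exchangers (means of 8.83, 9.06 and 8.94 in brain, lung and primary lines), and Slc9a2, an exchanger (4.49, 4.57 and 4.77). Of 28 measured proton pump and channel genes, mostly subunits of the vacuolar proton pump, 3, 2 and 2 had an unadjusted p under 0.05 in brain against primary, brain against lung and lung against primary lines. Those with the smallest F test p were Atp6v0a1 (means of 7.74, 7.51 and 7.90) and Atp6ap2 (8.53, 8.85 and 8.90), with differences in brain against primary lines of -0.16 ± 0.11 and -0.37 ± 0.12 that did not pass (limma adjusted p = 0.611 and 0.165).

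**Figure D4:**
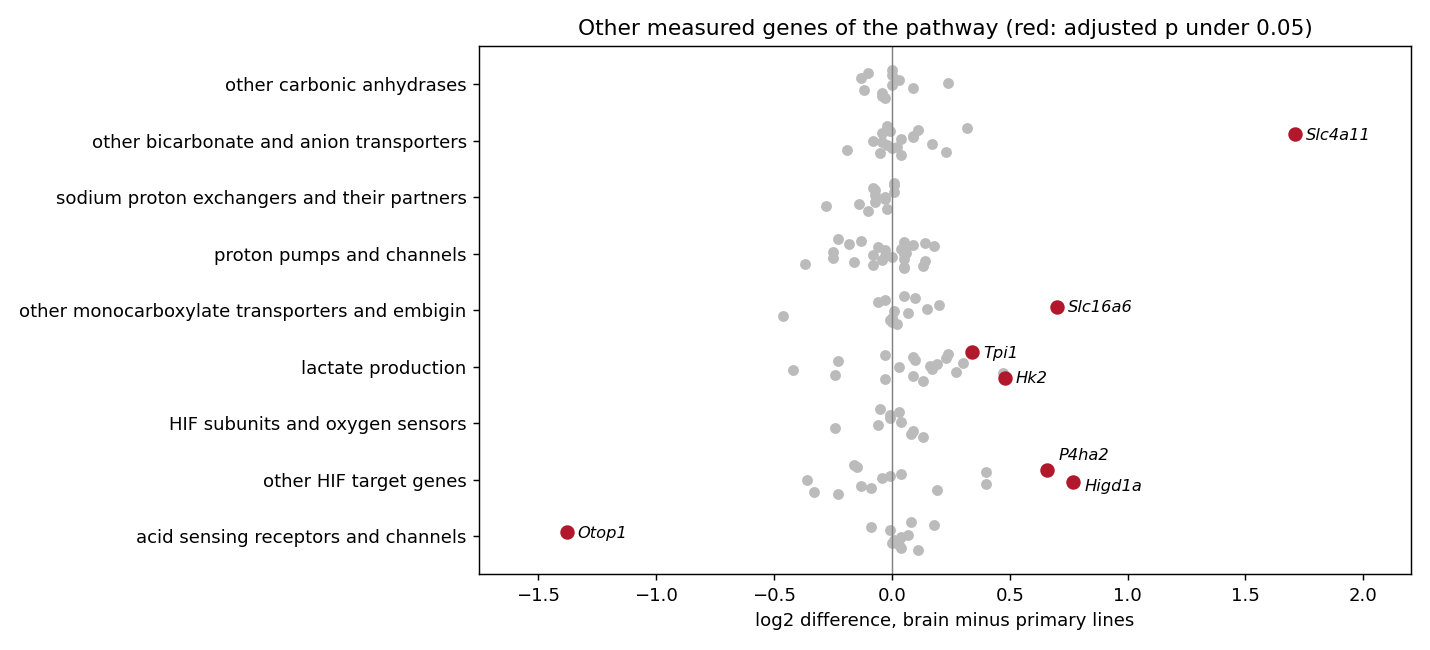
Log2 difference in brain minus primary lines for each of the 143 other measured genes, grouped by list. Red points with names are the 7 genes with an adjusted p under 0.05, led by Slc4a11 at 1.71 and Otop1 at -1.38, and grey points are the genes that did not pass.

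Genes that make lactate or that respond to HIF are given because Car9 is a known HIF target. Whether HIF had a part in the Car9 levels was not tested. Of 20 measured glucose and lactate metabolism genes 2 rose in brain against primary lines and 0 fell, with a list median of 0.14. These were Hk2, a hexokinase (0.48 ± 0.11, limma adjusted p = 0.0444, range 0.0267 to 0.158), and Tpi1, triose phosphate isomerase (0.34 ± 0.07, limma adjusted p = 0.0356, range 0.0137 to 0.119), and each held in only 2 of the 9 fits that left out 1 line. Those 2 fits left out brain line 1 and lung line 1. A limma unadjusted p under 0.05 was held by 8 of the 20 genes in brain against primary lines, beside 15.8% of all genes. The counts were 4 in brain against lung and 1 in lung against primary lines, beside 14.9% and 4.74%. Brain and primary ranges were separate for 4 genes, 4 higher and 0 lower in brain lines, beside 17.8% of all genes. Values of Hk2 and Tpi1 were known when the list was chosen. Ldha, the gene of the main lactate-forming subunit, had means of 12.85, 12.84 and 12.76 in brain, lung and primary lines and did not pass.

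Of 15 other HIF target genes 2 rose in brain against primary lines and 0 fell, with a list median of -0.04. A limma unadjusted p under 0.05 was held by 6 of the 15 in that comparison, beside 15.8% of all genes. The counts were 4 in brain against lung and 3 in lung against primary lines, beside 14.9% and 4.74%. Brain and primary ranges were separate for 6 genes, 4 higher and 2 lower in brain lines, beside 17.8% of all genes. Values of Higd1a were known when the list was chosen. Higd1a, a mitochondrial protein gene, had log2 levels of 8.13, 7.91 and 8.02 in the brain lines, 7.39, 7.64 and 7.65 in the lung lines, and 7.18, 7.47 and 7.12 in the primary lines. The brain lines were above all others, and the change was 0.77 ± 0.11 (1.70-fold, limma adjusted p = 0.00816, range 0.00392 to 0.074), held without any 1 line. Its dimmer probe set differed by 0.34. P4ha2, a subunit of collagen prolyl hydroxylase, changed by 0.66 ± 0.15 (limma adjusted p = 0.0494, range 0.0269 to 0.194) and kept the call only without brain line 1 or primary line 2. The other 13 did not pass, with differences from -0.36 ± 0.10 in Kdm3a (limma adjusted p = 0.0963) to 0.40 in P4ha1 and Ero1a. Kdm3a was called lower with quantile normalization repeated and with array weights. P4ha1, which encodes another collagen prolyl hydroxylase subunit (0.40 ± 0.09, limma adjusted p = 0.0533), was called after median centring, without the dimmest probe sets, with an intensity trend and with array weights. Ero1a, an oxidase gene of the endoplasmic reticulum (0.40 ± 0.10, limma adjusted p = 0.0697), was called without the dimmest probe sets. Values between these included Vegfa (-0.16 ± 0.12), Ndrg1 (0.04 ± 0.15), Bnip3 (0.19 ± 0.13) and Ankrd37 (-0.33 ± 0.11). Neither a HIF subunit nor an oxygen sensor passed: Hif1a had means of 10.30, 10.36 and 10.31 in brain, lung and primary lines, Egln1 9.16, 9.01 and 9.07, and Egln2 8.42, 8.68 and 8.66, and 0, 1 and 0 of the 10 genes had an unadjusted p under 0.05 in brain against primary, brain against lung and lung against primary lines.

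No marker of another cell type passed. Of 51 markers in the 9 lists other than epithelium, 0 passed in limma in brain against primary lines, with 4 at an unadjusted p under 0.05 and a smallest adjusted p of 0.145. Against lung lines 0 passed as well, with 6 at an unadjusted p under 0.05, and without moderation of the variances 0 passed in either comparison. Astrocyte markers, of which 4 of 7 had a mean above background, had a summed log2 level of 11.10 to 11.26 in brain, 11.11 to 11.25 in lung and 10.96 to 11.14 in primary lines, nearly all of it from Gja1. The defining astrocyte genes Gfap (4.42, 4.29 and 4.47) and Aqp4 (3.66, 3.68 and 3.64) were near or below background. Oligodendrocyte markers, 4 of 6 above background, summed to 7.63 to 7.76, 7.63 to 7.86 and 7.58 to 7.76. Some epithelial markers moved in the direction of Car9 and Car12. In brain against primary lines 2 of 6 rose (Krt14 by 1.62 ± 0.22 and Cdh1 by 0.90 ± 0.19), beside 1.56% of all genes. Against lung lines 2 of 6 rose (Krt14 by 1.84 ± 0.22 and Cldn7 by 1.54 ± 0.32), beside 0.913% of all genes. Cldn7 was also higher against primary lines (1.34 ± 0.32, limma adjusted p = 0.0585), and Cdh1 against lung lines (0.65 ± 0.19, limma adjusted p = 0.134). Neither of these passed, although the lines did not overlap. Krt8 and Krt18 differed little, by -0.08 and 0.07 against primary lines and by -0.15 and -0.05 against lung lines. Epcam differed by 0.45 and 0.53 against primary and lung lines and did not pass. The summed log2 level of that list was 13.86 to 14.16 in brain, 13.97 to 14.01 in lung and 13.78 to 14.02 in primary lines, and its part in the result was not tested.

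Genes most like each member were sought by Pearson correlation over the 9 lines among 7153 or 7154 genes above background with at least the median spread. Car12 was most like Slc4a11 (r = 0.987), followed by the matrix-associated Ccn2 (0.985) and the NF-kappa-B subunit gene Rel (0.983). Car9 was most like Stambpl1 (0.974), Tmbim1 (0.974) and Prss22 (0.969), and Slc4a4 most like Nectin2 (0.982), Bhlhe40 (0.981) and Ifngr2 (0.978). For Car13 the nearest were Ctsh (0.952), Nsun6 (0.946) and Ccdc181 (0.934), and for Slc16a1 Pigf (0.986), Ltv1 (0.979) and Notch2 (0.973). For Slc16a3 they were Celf3 (0.977), Sdk1 (0.962) and Cldn18 (0.960), for Bsg Bcl11a (0.940), Tmcc2 (0.921) and Stk16 (0.913), and for Car2 H2bc21 (0.924), Pdcl3 (0.902) and Ube2v2 (0.901). These values describe shared order among lines that fall into 3 origins and were searched over many genes. For Slc16a1, Slc16a3, Bsg and Car2, whose levels varied little, they rest on small differences.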

How the data were processed

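The deposited values are log2 intensities, and the submitters' processing notes name RMA as the method of the authors. RMA corrects background, quantile-normalizes arrays and summarizes each probe set, which compresses differences of dim probe sets. The log base was read from the range of the values, and no genome build or version is given in the sources used here. Of 35557 probe sets, 21789 had 1 symbol in the platform annotation, 1621 several and 12147 none. The brightest probe set of a symbol was used, which gave 19938 genes.

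Limma 3.58.1 in R 4.3.3 (lmFit, eBayes, two-sided, no trend) fitted 1 mean per origin to all 9 arrays, with 6 residual and 3.72 prior degrees of freedom, and was tested on simulated data. Fold changes are powers of the log2 difference. A value after ± is the model's SE unless SD is written. Permuting 3 lines against 3 cannot pass the threshold, so no such test was run.

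The members and lists were chosen with earlier results of these data known, among them values of Car9, Car12, Higd1a, Hk2 and Tpi1. The rule named all members, up to 4 called genes per list and comparison, the 2 with the smallest F test p of a list with none, and the 3 genes most like each member. Of 161 listed symbols 151 were measured. Others named (Emb, Ldha, Hif1a, Vegfa, Kdm3a, P4ha1, Ero1a, Ndrg1, Bnip3, Ankrd37, Car5b, Mpc1, Slc16a13) were chosen after their values were seen. Alternatives were further normalizations, filters, variance models, probe set rules and leaving out lines.

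Mice with the same number are different animals. Across genes, what remained of same-numbered lines after subtracting the origin's mean correlated in brain and lung lines (0.284, 0.130 and 0.241, each over 0.1), so the mouse-number block is given there. Between lung and primary lines the correlations were 0.221, 0.0785 and 0.00798, of which only the first was over 0.1. Between brain and primary lines they were 0.0666, -0.000736 and -0.0442. The pairing comes from the data alone.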

Additional observations from a re-analysis of the deposited data

How the results depend on the processing

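With only the 6 arrays compared, with no moderation of the variances and at an adjusted p under 0.01, the called members numbered 2, 1 and 2 in brain against primary lines (4 as reported) and 1, 0 and 1 in brain against lung lines (2). The other listed genes numbered 3, 0 and 2 (7 as reported) and 1, 0 and 0 (2), and all genes 197, 51 and 157 (624) and 107, 3 and 66 (395). No moderation called 1 gene in lung against primary lines. Median centring gave 11 listed genes in brain against primary lines, and in brain against lung lines 5, with 6 under repeated quantile normalization. The replicate block gave 4 listed genes in brain against lung lines, and it called Slc4a4 there besides Car9 and Car12. It moved no count in the other comparisons by over 1.5 times. Leaving out 1 line gave 2 to 4 members, 4 to 10 listed genes and 273 to 556 genes in brain against primary lines, and 1 to 4, 0 to 3 and 69 to 417 in brain against lung lines. With median centring the split of all calls in brain against primary lines was 459 higher and 218 lower, against 311 and 313. Of 381 recomputed member differences, 378 stayed within 1 SD of the reported value, 0 called ones changed sign, and 3 moved: Slc16a1 to 0.36 with median centring and 0.26 with repeated quantile normalization, and Bsg to 0.19 with median centring, all in brain against lung lines. The cause was not tested. Signal near background limits Car2, Car4, Slc16a3 and, in the lung and primary lines, Slc4a4.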
